A study of Arabidopsis thaliana with 54 samples.

Results

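Long-day and short-day seedlings of Arabidopsis thaliana were compared by small RNA sequencing, over the same 6 times of day. The comparison took the 18 long-day and the 18 short-day libraries by the photoperiod and time in their names, 36 of the 54 libraries of the series, with 3 libraries (replicates A, B and C) for each photoperiod and time. All seedlings were wild type (Columbia 0) and were harvested whole, shoots with roots, so that cell types and organs were pooled. They were stratified for 48 h, grown for 10 days in 12 h light and 12 h dark, moved on day 11 and harvested on day 13. The long-day group was moved to 16 h light and 8 h dark, and the short-day group to 8 h light and 16 h dark; the other 18 libraries came from equinox-day seedlings kept in 12 h light and entered the estimate of the spread, the principal components and 1 description of where their means lay. Times are Zeitgeber times (ZT), hours after lights on: ZT4, ZT8, ZT12, ZT16, ZT20 and ZT24. Light was on in both photoperiods at ZT4 and ZT8, on in long day only at ZT12 and ZT16, and off in both at ZT20 and ZT24, where ZT8, ZT16 and ZT24 fall on a switch of light and are counted with the hours before it.

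Plant microRNAs are cut by DICER-LIKE 1 from the stem of a folded transcript as a duplex of a 5p and a 3p strand. As a rule the guide strand is loaded into ARGONAUTE 1, where it directs cleavage or translational repression of transcripts with closely matching sites, while the other strand is mostly degraded. Day length sets flowering time and growth in Arabidopsis, and the age pathway, in which miR156 restrains SPL transcription factors and miR172 restrains AP2-like repressors of flowering, runs beside the photoperiod pathway.

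The mature sequences below carry the comparison. They are from the RefSeq annotation of TAIR10.1, read 5′ to 3′, with the seed (bases 2 to 8) in capitals. The first set was higher in long day over all times. The copper microRNAs miR398a and miR398b/c share a seed, and so do the sulfate microRNA features of miR395. A name with several letters is a feature that pools loci with the same mature sequence.

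miR169f-3p: gCAAGUUGaccuuggcucugc
miR159b-5p: gAGCUCCUugaaguucaaugg
miR390b-3p: cGCUAUCCauccugaguucc
miR398a-3p: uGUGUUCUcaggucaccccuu
miR398b/c-3p: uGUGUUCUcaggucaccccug
miR395b/c/f: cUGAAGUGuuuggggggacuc
miR395a/d/e: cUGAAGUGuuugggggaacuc

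The second set was lower in long day. The features miR170-3p and miR171a-3p share a seed, and miR390a/b-5p is the strand opposite to miR390b-3p above.

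miR156a-f-5p: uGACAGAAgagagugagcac
miR167a/b-5p: uGAAGCUGccagcaugaucua
miR390a/b-5p: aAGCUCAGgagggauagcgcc
miR391-3p: aCGGUAUCucuccuacguagc
miR173-5p: uUCGCUUGcagagagaaaucac
miR171a-3p: uGAUUGAGccgcgccaauauc
miR170-3p: uGAUUGAGccgugucaauauc
miR5634: aGGGACUUugugaauuuaggg

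The third set differed in its long-day to short-day change between the times when light was on in long day only and the other times. Its 4 members have 4 different seeds.

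miR779.2: uGAUUGGAaauuucguugacu
miR158a-5p: cUUUGUCUacaauuuuggaaa
miR829-5p: aCUUUGAAgcuuugauuugaa
miR165a-5p: gGAAUGUUgucuggaucgagg

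Long-day libraries held 14.6 to 18.6 M counts and short-day libraries 14.1 to 21.6 M (permutation p = 0.00621, labels permuted within each time). Outside the row named genome, which took 79.6% to 90.2% in long day and 80.3% to 92.9% in short day (permutation p = 0.252), they held 1.74 to 3.48 M and 1.33 to 3.59 M (permutation p = 0.993). The number of microRNA features with a count was 184 to 204 in long day and 183 to 220 in short day (permutation p = 0.00422), and the part of this difference in the results below was not tested. On the first principal component of log2 CPM (21.7% of the variance), the following 5 short-day libraries stood outside the range of all others: ZT24 C, ZT4 B, ZT12 C, ZT16 B and ZT20 A. Results that rest on them are given with and without them. Whether replicates came from separate cultures is not stated, so the p-values cover the spread among the samples given, which may be technical. Levels are CPM, the count over the scaled library total without the genome row, set to a common total of 1e6, and fewer cells of a type cannot be told apart from less RNA per cell in whole seedlings.

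Over all 6 times, 12 of the 149 microRNA features tested were higher in long day than in short day and 31 were lower (edgeR's quasi-likelihood test, Benjamini-Hochberg adjusted p below 0.05). These are 28.9% of the microRNAs, beside 25.2% of all 8869 features tested, of which 10.8% were higher and 14.4% lower. The share called among microRNAs thus lay near the background. The 12 higher features had log2 fold changes of 0.43 to 1.18 (median 0.67) and the 31 lower ones of -2.11 to -0.38 (median -0.64). Of all 149, 48 had a positive and 101 a negative log2 fold change, with a median of -0.17 over microRNAs and -0.02 over all features. The split depended on the scaling: fitted alone, with their own totals, 32 microRNAs were higher and 37 lower, and 12 were higher and 17 lower when the genome row was counted in the totals and TMM factors were dropped. Without the 5 short-day libraries that lay apart, 5 were higher and 38 lower, and 33 of the 43 kept their call. No called microRNA changed sign in any of the 12 alternative fits or the 36 fits without 1 library.

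The values of the libraries overlapped in every case: for none of the 149 features did the 18 long-day values lie wholly above or below the 18 short-day values. Within a time, 23 of the 43 called features had 3 long-day values beyond all 3 short-day values at 3 or more of the 6 times. Either direction was counted, and the same count over all 149 features was not taken. The direction was the same at all 6 times for 24 features, at 5 times for 16 and at fewer for 3. In the higher set 5 of 12, and in the lower set 19 of 31, kept 1 sign throughout. Of all 149 features, 34 had the same sign at 6 times. The 43 were chosen on the mean over these times, which favours equal signs and values that lie apart, so the counts are a description. The mean in equinox-day libraries lay between the long-day and short-day means for 36 of the 43 and for 67 of all 149 features, and the choice of features with a wide gap favours this too.

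**Figure D1:**
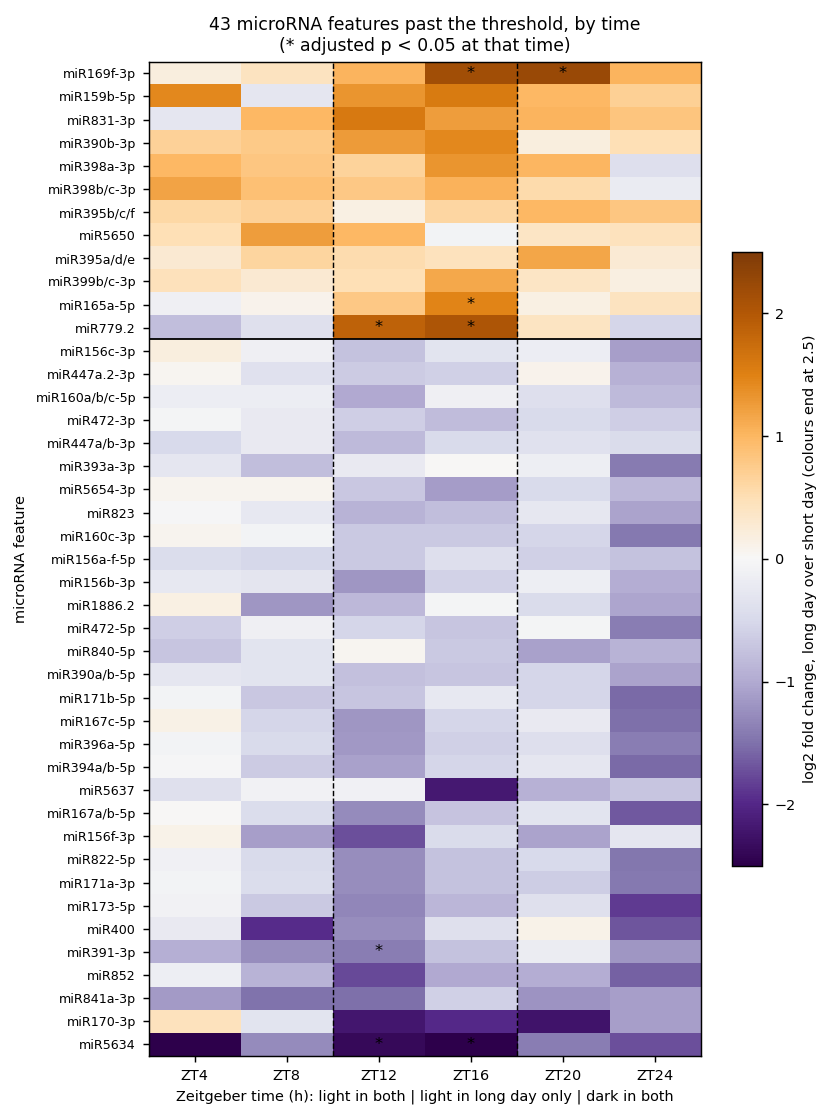
Log2 fold change of long day over short day (colour, ending at 2.5 in either direction) for the 43 called microRNA features (rows, from the highest to the lowest mean change) at the 6 Zeitgeber times (columns); each cell compares 3 with 3 libraries, dashed lines part the light phases and a star marks an adjusted p below 0.05 at that time alone. The 31 lower features are pale at ZT4, where their median is -0.08, and darker at ZT12 and ZT24, where it is -0.997 and -1.11.

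The size of the difference varied over the day. The 12 higher features had median log2 fold changes of 0.48, 0.65, 0.89, 1.27, 0.77 and 0.44 at ZT4, ZT8, ZT12, ZT16, ZT20 and ZT24. For the 31 lower features the medians were -0.08, -0.45, -0.997, -0.67, -0.46 and -1.11. Over all 149 features they were -0.12, -0.05, -0.13, -0.15, -0.15 and -0.45, with the lowest at ZT24, and the median of the lower set at ZT4 was no further from 0 than that of all features. The higher set thus had its largest median at the last hour of light in long day, and the lower set at ZT12 and at the end of the night. These medians describe features chosen on the mean of the same times and carry no test.

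In the phase change list (miR156, miR157 and miR172) 4 of 15 features were lower in long day and 0 higher. The share called by edgeR, 26.7%, lay near the 25.2% of all features, with a median log2 fold change of -0.38 against -0.02 over all features. It depended on the tool: DESeq2 called 9 of the 15, beside 852 higher and 1750 lower of all 8869 features. By edgeR 10 of the 15 had an unadjusted p below 0.05. Of the 15, 14 were negative, beside 101 of all 149 microRNAs. The main strand miR156a-f-5p had 2835, 4392 and 8625 CPM (lowest, median, highest) in long-day libraries, against 3871, 6557 and 10311 CPM in short-day libraries. The highest long-day value, at ZT24, was that of 1 library whose replicates had 3554 and 3010 CPM. Its log2 fold change was -0.56 ± 0.15 (SE), and the means were lower in long day at 6 of 6 times. At ZT12, all 3 long-day values (3311, 4958 and 4244 CPM) lay below all 3 short-day values (5697, 6890 and 7246 CPM). Of the 5 opposite (3p) strands of miR156 tested, 3 were lower too, miR156b-3p, miR156f-3p and miR156c-3p, while miR156a-3p and miR156d-3p were not called. Of the miR172 features, which act after miR156 in the same pathway, miR172c/d-3p (adjusted p = 0.0542) came nearest to a call, at medians of 0.744 CPM in long day and 1.296 CPM in short day. Of the 3p strands, miR156b-3p had 148, 296 and 401 CPM in long day, against 175, 448 and 721 CPM in short day (lowest, median, highest). The call of miR156c-3p was lost in 11 of the 36 fits without 1 library (adjusted p up to 0.0780), and that of miR156f-3p without long day ZT24 C, short day ZT8 C or short day ZT16 C (up to 0.0611).

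Among the auxin microRNAs (miR160, miR167, miR390, miR391 and miR393), 7 of 16 features were lower in long day and 1 higher, against 25.2% called among all features, with a median of -0.23. The family miR167 targets ARF6 and ARF8, miR160 targets ARF10, ARF16 and ARF17, miR393 targets the TIR1 and AFB auxin receptors, and miR390 starts the production of tasiRNAs against ARF2, ARF3 and ARF4. For miR167a/b-5p the lowest, median and highest values were 203, 354 and 656 CPM in long day, and 285.9, 604 and 1335 CPM in short day. Its long-day and short-day means were about level at ZT4, at 542 and 540 CPM, and furthest apart at ZT24, with 205, 348.5 and 442 CPM in the 3 long-day libraries and 1038, 1335 and 777 CPM in the 3 short-day libraries. The other lower members were miR167c-5p, miR160a/b/c-5p, miR160c-3p, miR393a-3p, miR390a/b-5p and miR391-3p, where miR160a/b/c-5p and miR393a-3p, like miR172c/d-3p above and miR823, miR840-5p and miR5654-3p below, were named after their values were seen. Here miR160c-3p and miR393a-3p are the strands opposite to miR160a/b/c-5p and miR393a/b-5p, and miR393a/b-5p was tested but not called. The call of miR160a/b/c-5p was lost in 13 of 36 fits without 1 library (adjusted p up to 0.0784).

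The miR390 relative miR391-3p was lower at every time. It had 11.4, 22.9 and 35.5 CPM (lowest, median, highest) in long-day libraries, against 21.6, 43.6 and 70.1 CPM in short-day libraries. All 3 long-day values were below all 3 short-day values at 4 of 6 times, among them ZT12, with 27.3, 21.3 and 24.0 CPM against 58.2, 68.1 and 65.6 CPM. Its log2 fold change was -0.96 ± 0.17 (adjusted p = 4.28e-05), and it kept its call in all 12 alternative fits and in all 36 fits without 1 library. The higher member, miR390b-3p, had 21.2, 37.7 and 58.3 CPM in long day, against 6.51, 20.1 and 43.6 CPM in short day, while its 5p partner feature was lower. The strands of this hairpin are taken up below.

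The tasiRNA and phasiRNA triggers (miR161, miR173, miR400, miR472 and miR825) had 4 of 7 features (57.1%) lower in long day, 0 higher, and a median of -0.51. Over all features 25.2% were called and 14.4% were lower, and a list of 7 gives no firm share. The trigger of TAS1 and TAS2, miR173-5p, had 44.4, 90.5 and 170 CPM (lowest, median, highest) in long day, against 75.6, 180.1 and 350.1 CPM in short day. Its means lay close at ZT4, 138 in long day and 146 CPM in short day, and apart at ZT24, 80.2 in long day and 293 CPM in short day. The others were both strands of miR472, which targets transcripts of NLR immune receptors, and miR400, which targets pentatricopeptide repeat transcripts. Of miR472, the annotation places both strands in an exon of another gene, so reads of its transcript could be among their counts. The call of miR400 was lost without the 5 short-day libraries (adjusted p = 0.0979) and in 12 of 36 fits without 1 library (up to 0.101), and that of miR472-3p without any of 4 libraries (long day ZT24 A or ZT16 B, short day ZT24 A or ZT12 B; up to 0.0600).

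The NF-YA and HAM list (miR169, miR170 and miR171) split by family, with 1 of 7 features higher and 3 lower in long day and a median of -0.25. The share called was 57.1%, beside 25.2% of all features, and this list of 7 too gives no firm share. The higher one was miR169f-3p, the 3p strand of a hairpin whose family targets NF-YA transcription factors. Of the 8 miR169 features only this 1 was tested, and whether this strand has such targets was not tested. It had 45.1, 114 and 182 CPM (lowest, median, highest) in long day, against 23.8, 50.03 and 121 CPM in short day. The long-day means stood at 94.0 and 77.6 CPM at ZT4 and ZT8 and at 165 and 168 CPM at ZT16 and ZT20, against 82.5, 57.8, 37.2 and 35.6 CPM at the same times in short day. At ZT20 the 3 long-day libraries had 164, 171 and 169.9 CPM and the 3 short-day libraries 24.1, 43.01 and 39.7 CPM. It was the microRNA with the smallest p (log2 fold change 1.18 ± 0.16, adjusted p = 2.23e-07). The lower ones, miR170-3p, miR171a-3p and miR171b-5p, are of the families that target HAIRY MERISTEM transcripts. Among them miR171b-5p is the strand opposite to miR171b/c-3p, which was not called. Of these, miR171a-3p had 9.17, 17.8 and 39.8 CPM in long day, against 14.8, 31.3 and 66.3 CPM in short day. The rarer miR170-3p, with the same seed, had medians of 1.31 and 3.09 CPM in long and short day.

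In the meristem and organ patterning list (miR164, miR165, miR166, miR394 and miR396), 1 of 14 features was higher and 2 lower in long day. The median of -0.12 turned to 0.03 with microRNAs fitted alone. The 21.4% called by edgeR lay below the 25.2% of all features, while DESeq2 called 6 of the 14. The growth-regulating factor microRNA miR396a-5p was lower, at 173, 276 and 446 CPM (lowest, median, highest) in long day against 179, 473 and 889 CPM in short day, and so was miR394a/b-5p, which targets an F-box transcript. All 3 long-day values of each lay below the short-day ones at 4 of 6 times. The higher one, miR165a-5p, is described with the light phases. Of miR159 and miR319, which target GAMYB and TCP transcripts, 1 of 6 features (16.7%) was higher and 0 lower (median -0.07, turning to 0.02 and 0.08 with the genome-row totals without TMM factors and with microRNAs alone). That feature was the minor strand miR159b-5p, with 5.47, 17.2 and 36.6 CPM in long day against 3.26, 7.84 and 21.3 CPM in short day. Its long-day mean was above the short-day mean by the most at ZT16, 32.7 against 10.9 CPM, and below it at ZT8, 12.0 against 14.6 CPM.

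The nutrient lists (copper, sulfate and phosphate, with 6, 2 and 2 features tested) had called members on the higher side only. Of all features, 25.2% were called, 10.8% higher and 14.4% lower. The copper microRNAs (miR397, miR398, miR408 and miR857) target copper proteins such as superoxide dismutase, laccases and plantacyanin. Of them, 2 of 6 features (33.3%) were higher in long day and 0 lower, with a median of 0.31. Lists this short give no firm share. The 2 are both of miR398 and their sequences differ by 1 base. The other 4 were not called, and miR397b was negative (log2 fold change -0.24). The abundant miR398b/c-3p had 1897, 3746 and 6023 CPM (lowest, median, highest) in long day, against 693, 2250 and 6263 CPM in short day. All 3 long-day values lay above the short-day ones at 2 of 6 times. At ZT24 short day held its highest value (6263 CPM) and long day its lowest (1897 CPM), and the log2 fold change there was -0.21. Its log2 fold change was 0.71 ± 0.20 over all times and 0.58 without the 5 short-day libraries (adjusted p = 0.0421). The rarer miR398a-3p had 36.8, 66.1 and 115 CPM in long day, against 13.8, 38.5 and 93.6 CPM in short day.

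Both features of miR395, which targets ATP sulfurylases and a sulfate transporter, were higher in long day. For miR395b/c/f the values were 71.3, 115 and 224 CPM (lowest, median, highest) in long day, against 36.5, 74.0 and 145 CPM in short day, higher at 6 of 6 times. Neither call held without the 5 short-day libraries (adjusted p = 0.0939 for miR395b/c/f and 0.140 for miR395a/d/e), and that of miR395a/d/e was also lost in 16 of 36 fits without 1 library (up to 0.0726). The phosphate microRNA miR399b/c-3p, which targets PHO2, was higher (1 of 2 features in its list, with 0 lower), at 12.8, 23.7 and 56.7 CPM in long day against 9.36, 16.8 and 26.2 CPM in short day. Its call was lost without the 5 libraries (adjusted p = 0.340) and in 21 of 36 fits without 1 library (up to 0.104).

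Several lists had no called member by edgeR over all times, beside 25.2% called among all features. Among the feedback microRNAs (miR162, miR168 and miR403, which target DCL1, AGO1 and AGO2), 0 of 7 passed, with 0 at an unadjusted p below 0.05 and 0 called by DESeq2. The median of this list, 0.01, turned negative under 3 other scalings and, at -0.15, without the 5 short-day libraries. It was 0.102 with the genome-row totals without TMM factors and 0.145 with microRNAs fitted alone. In that last fit edgeR called miR162a/b-3p higher (log2 fold change 0.307, adjusted p = 0.0193). In this list miR162a/b-3p had a median of 8428 CPM in long day and 6757 CPM in short day (log2 fold change 0.15 ± 0.15), and miR403-3p of 1961 and 1947 CPM (-0.14 ± 0.13). In the list of miR158 and miR163, 0 of 4 passed by edgeR, with 1 at an unadjusted p below 0.05 and 3 called by DESeq2. There the CPM had medians of 11157 in long day and 13814 CPM in short day for miR158a-3p. For the MYB microRNAs miR858a and miR858b, 0 of 2 passed, with 0 at an unadjusted p below 0.05 and 0 called by DESeq2, and with medians of 12.0 in long day and 10.3 CPM in short day for miR858a.

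Among young microRNAs (a list of higher-numbered microRNAs) 2 of 37 features were higher in long day and 5 lower, with a median of -0.18. The share called by edgeR was 18.9%, beside 25.2% of all features. The lower ones were miR841a-3p, miR852, miR822-5p, miR840-5p and miR823, of which miR822 targets transcripts of DC1-domain proteins and miR823 that of the DNA methyltransferase CMT3. The most abundant, miR822-5p, had 40.4, 75.9 and 117 CPM (lowest, median, highest) in long day, against 61.1, 132 and 268 CPM in short day. At 4 of 6 times, ZT12 and ZT16 among them, all 3 long-day values lay below all 3 short-day values. The higher ones were miR831-3p and miR779.2. Both calls were lost without the 5 short-day libraries (adjusted p = 0.0642 for miR831-3p and 0.307 for miR779.2). The call of miR840-5p was lost in 19 of 36 fits without 1 library (adjusted p up to 0.115), and that of miR823 without long day ZT24 A, long day ZT12 A or short day ZT20 A (up to 0.0569).

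Of the latest-numbered microRNAs, 1 of 22 was higher and 4 lower in long day. The share called by edgeR was 22.7%, beside 25.2% of all features. The median of -0.16 turned to 0.07 with microRNAs fitted alone. The furthest of all microRNAs was miR5634. It had 0, 1.35 and 3.51 CPM (lowest, median, highest) in long day, against 1.54, 5.21 and 12.3 CPM in short day. All 3 long-day values lay below all 3 short-day values at 5 of 6 times, the exception being ZT8. At ZT16 they were 1.51, 0.363 and 0.423 CPM in long day and 6.98, 5.36 and 7.92 CPM in short day. Its log2 fold change was -2.11 ± 0.28 (adjusted p = 2.37e-07) and ran from -2.27 to -1.97 in the 12 alternative fits. Its long-day values lay near the floor, and it passed the filter on low counts only through libraries outside long day. That choice favours a low long-day level, so the size and rank of its change are a description. The 12 fits include 1 without this filter, where it was called too. The others were miR5654-3p, called in 36 of 36 fits without 1 library, miR5637 and miR1886.2 on the lower side and miR5650 on the higher side. The calls of miR5637 (adjusted p = 0.0731), miR1886.2 (0.0722) and miR5650 (0.315) were lost without the 5 short-day libraries. Without 1 library, miR5637 was lost in 6 of 36 fits, miR5650 in 18 and miR1886.2 in 22. Both remaining microRNA features, miR447a/b-3p and miR447a.2-3p, were lower, the second with its call lost in 13 of 36 such fits (adjusted p up to 0.0726).

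**Figure D2:**
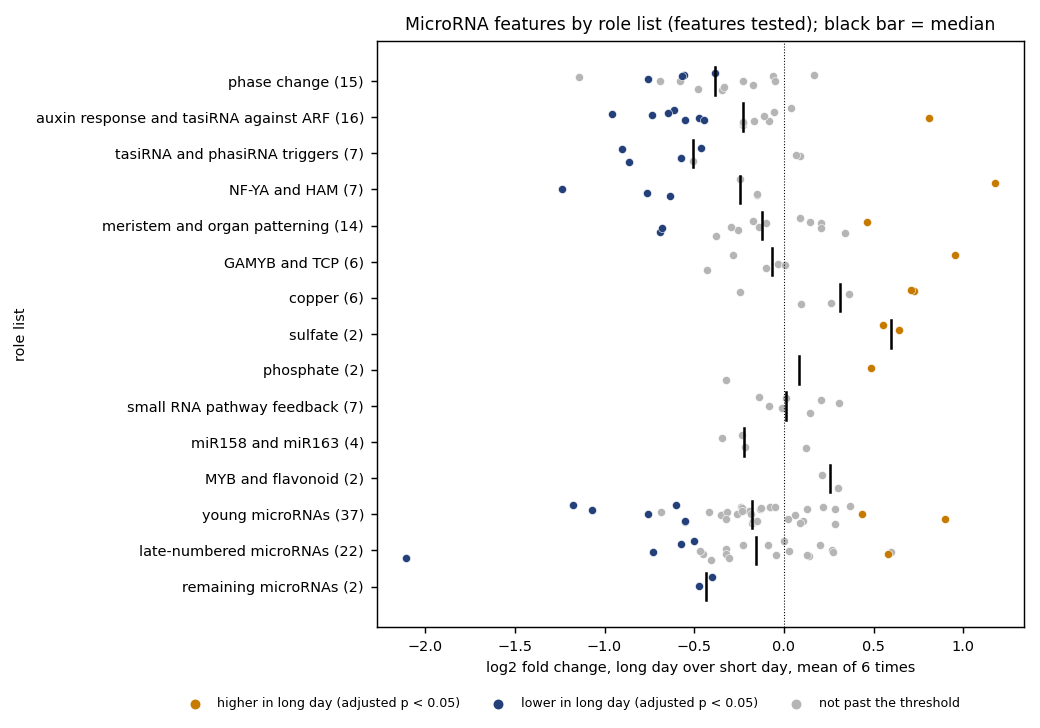
Log2 fold change of long day over short day, mean of 6 times, for each of the 149 microRNA features tested (points), in rows by role list with the number of features; orange points were higher and blue points lower at adjusted p below 0.05, and black bars are list medians. The copper, sulfate and phosphate rows hold called points to the right only, and the phase change and trigger rows to the left only.

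The photoperiods differed in light at ZT12 and ZT16 only, and the difference between long and short day was tested apart for these times. Of the 149 microRNAs tested, 20 were called there, 11 higher and 9 lower, beside 810 of all 8869 features (9.13%). At the 4 times with the same light, 11 of the 149 were called, 3 higher and 8 lower, beside 1282 of all 8869 features (14.5%). The share among microRNAs was thus the smaller one at these times. Both sets of times called 6 of the microRNAs. Of the 43 features called over all times, 42 had the same sign in both sets of times and 33 the larger absolute log2 fold change at ZT12 and ZT16. The 43 were chosen on the mean over these times, which favours equal signs. The mean over ZT12 and ZT16 rests on fewer libraries than that over the other 4 times, which favours larger values there. The same counts over all 149 features were not taken, so 42 and 33 are a description and carry no test. The number of microRNAs called in each set of times rested on single libraries. At ZT12 and ZT16 it was 10 without long day ZT16 C or short day ZT16 C, and 12 without long day ZT12 B or ZT16 B. At the other times the count was 6 without short day ZT20 A, 7 without long day ZT24 C, 17 without short day ZT12 B or ZT16 B, 18 without long day ZT24 B and 19 without short day ZT8 A.

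The test of the difference between these sets of times called 4 of the 149 microRNAs, beside 251 of all 8869 features (2.83%). The joint test for any variation of the long-day to short-day difference over the 6 times called 3 of the 149, beside 277 of 8869 (3.12%). In neither test was the share among microRNAs above that of all features (14 and 7 microRNAs had an unadjusted p below 0.05). The 4 were miR779.2, miR158a-5p, miR829-5p and miR165a-5p, each with its highest long-day mean at ZT16. No role is given here for miR779 and miR829, and miR165a-5p is the strand opposite to the HD-ZIP III microRNA miR165a/b-3p.

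At ZT16, miR779.2 had 42.2, 41.0 and 41.0 CPM in the 3 long-day libraries, against 8.85, 11.7 and 9.51 CPM in the short-day libraries. At ZT4 the values overlapped and the short-day mean was the higher, with 16.65, 17.02 and 17.04 CPM in long day and 27.6, 15.3 and 44.0 CPM in short day. Its log2 fold change was 1.95 ± 0.29 at ZT12 and ZT16 and -0.33 ± 0.20 at the other times, a difference of 2.28 ± 0.35 (adjusted p = 2.34e-05). This difference was called in all 12 alternative fits and in all 36 fits without 1 library, whereas the change over all times (0.43 ± 0.16) was called in 3 alternative fits and in 2 of 36 fits without 1 library.

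The minor strand miR158a-5p had 5195, 3835 and 3222 CPM at ZT16 in long day, against 1125, 935 and 2397 CPM in short day. At ZT8, the last hour of light in short day, it had 1524, 1222 and 804 CPM in long day and 1224, 2117 and 3051 CPM in short day. The log2 fold change was 1.32 ± 0.26 at ZT12 and ZT16 and -0.47 ± 0.18 at the other times (difference 1.79 ± 0.317, adjusted p = 0.000183), and this difference too was called in all 12 alternative fits and all 36 fits without 1 library. Its main strand miR158a-3p had log2 fold changes of -0.07 and -0.31 in the same sets of times (difference 0.24, adjusted p = 0.822).

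For miR829-5p the ZT16 values were 81.5, 76.1 and 84.6 CPM in long day and 34.9, 25.3 and 42.0 CPM in short day, and its difference was 1.12 ± 0.295 (adjusted p = 0.0212). For miR165a-5p they were 583, 571 and 762 CPM in long day and 257, 169.6 and 265 CPM in short day, with a difference of 0.997 ± 0.281 (adjusted p = 0.0360). In neither do the 3 and 3 values at ZT16 overlap. Neither difference was called with the share of the genome row as a covariate, nor in the fit without a filter on low counts. That of miR165a-5p was lost without any 1 of 6 libraries (adjusted p up to 0.0739): long day ZT24 A, ZT12 B or ZT16 C, and short day ZT4 C, ZT12 A or ZT16 B. Without the 5 short-day libraries the change of miR165a-5p over all times was not called (log2 fold change 0.28, adjusted p = 0.248).

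The third microRNA of the joint test, beside miR779.2 and miR158a-5p, was miR169f-3p (adjusted p = 0.0378; up to 0.0734 without 1 library, and lost in 12 of 36 such fits). Its log2 fold changes were 0.19, 0.42, 1.03, 2.15, 2.24 and 1.03 from ZT4 to ZT24. They were thus as large at ZT20, in darkness in both photoperiods, as at ZT16. Outside these, and named after their values were seen, both minor strands of the AGO1 microRNA, miR168a-3p (0.79 ± 0.24, adjusted p = 0.0238) and miR168b-3p (0.93 ± 0.27, adjusted p = 0.0202), were higher at ZT12 and ZT16, and miR164c-5p was lower (-0.93 ± 0.29, adjusted p = 0.0278).

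At single times, with 3 libraries against 3, few microRNAs were called. At ZT16 there were 6 of 149, 5 higher and 1 lower, beside 3.91% of all features. At ZT12 there were 3 of 149, 1 higher and 2 lower, beside 3.47%. At ZT20 there was 1 of 149, higher, beside 1.23%. The features at ZT16 were miR169f-3p, miR779.2, miR165a-5p, miR829-5p and miR158a-5p on the higher side and miR5634 on the lower side. At ZT4, ZT8 and ZT24 edgeR called 0 microRNAs, with 5, 8 and 36 at an unadjusted p below 0.05, beside 0.124%, 1.36% and 0.654% of all features called; no other tool was run at single times.

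**Figure D3:**
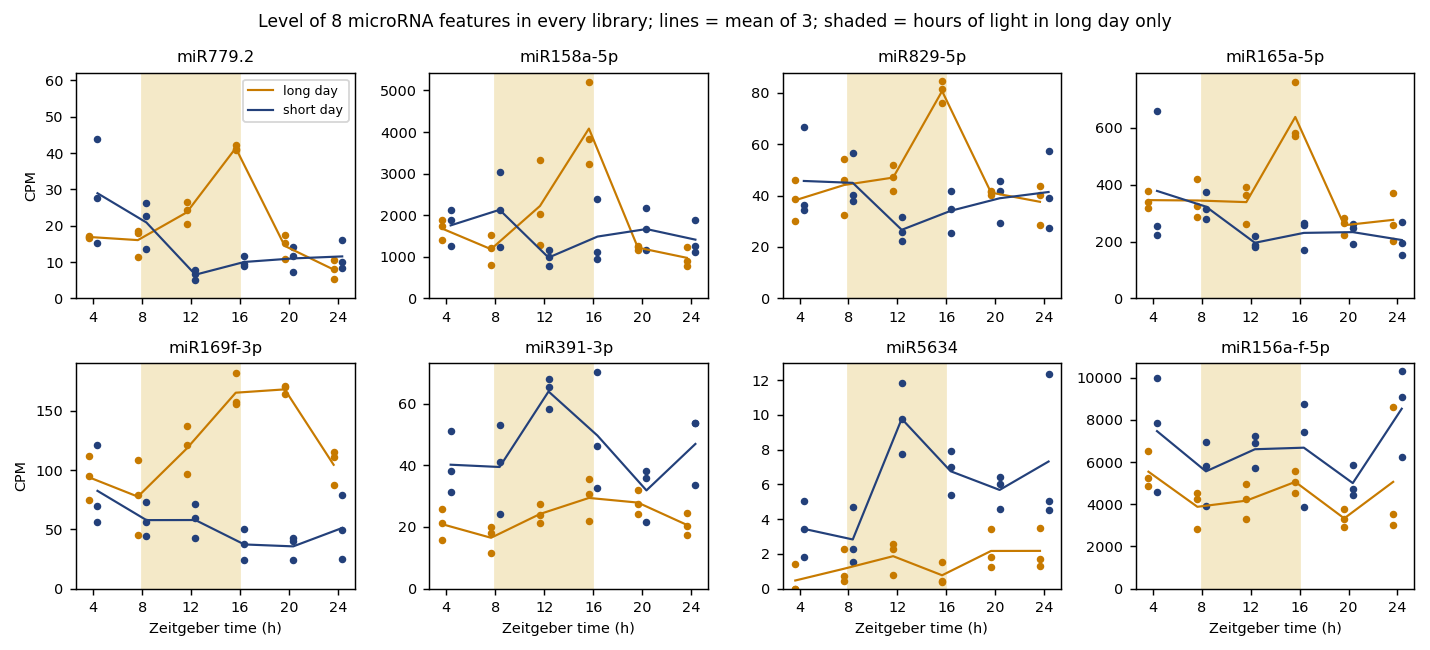
CPM of 8 microRNA features against Zeitgeber time, with a point for each library and lines through the means of 3; orange is long day and blue short day, drawn slightly to either side of the time, and the band marks the hours with light in long day only. The long-day lines of miR779.2, miR158a-5p, miR829-5p and miR165a-5p peak at ZT16, miR169f-3p stays high at ZT20, and miR391-3p, miR5634 and miR156a-f-5p run below short day at all 6 times.

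A share of the microRNA pool, the counts of a family over all microRNA counts of a library, does not depend on the scaling between libraries. MicroRNAs took 6.98%, 9.74% and 11.9% (lowest, median, highest) of the counts outside the genome row in long day and 7.71%, 9.67% and 14.0% in short day, and the mean share differed by -0.58 percentage points (permutation p = 0.231). Within the pool, 28 families had a mean share of at least 0.1%, and these 28 together held 98.5% of it. Of the 28, 16 (57.1%) had a changed share, 7 higher and 9 lower in long day. An unadjusted p below 0.05 was found for 18. The tests permuted the labels within each time and were adjusted over the 28 families.

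The copper family miR398 held a larger and the SPL-targeting family miR156 a smaller part of the pool in long day. The share of miR398 averaged 4.26% ± 1.36 in long day and 2.52% ± 1.22 in short day (SD, n = 18 each; permutation test, adjusted p = 0.00177), and was higher at 6 of 6 times. At ZT4 the means were 4.22% in long day and 1.501% in short day, and at ZT24 3.67% and 3.42%. For miR156 the share averaged 5.76% ± 1.497 in long day and 8.13% ± 2.07 in short day (permutation test, adjusted p = 0.00177), lower at 6 of 6 times. Its means were closest at ZT4, 8.10% in long day and 8.91% in short day. The sulfate family miR395, at 0.189% ± 0.0487 in long day and 0.121% ± 0.0463 in short day, had the smallest p and an adjusted p of 0.00177. It kept its call without the 5 short-day libraries (adjusted p = 0.00597), unlike its CPM.

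The most abundant family, miR161, which targets pentatricopeptide repeat transcripts, held 25.1%, 31.8% and 37.5% of the pool (lowest, median, highest) in long day and 18.7%, 29.2% and 37.7% in short day (permutation test, adjusted p = 0.0373), but it was higher at 3 of 6 times only. The DCL1 family miR162 averaged 8.77% ± 1.29 in long day and 7.44% ± 1.37 in short day (adjusted p = 0.0130). By CPM, no feature of it was called with all features fitted together. The remaining higher families were the copper family miR408, miR168 and miR3932. Beside miR156, the lower ones were miR5026 (4.13% ± 0.893 in long day, 4.95% ± 0.728 in short day), miR167, miR390, miR163, miR822, miR173, miR160 and miR171. Of the 16, the shares of miR162, miR171, miR163, miR3932, miR161 and miR168 were not called without the 5 short-day libraries, with adjusted p from 0.0753 to 0.121. In the 36 tests without 1 library, miR3932 and miR161 were each called in 28 and miR168 in 19, and the other 13 in all. Since shares sum to 100%, a higher share of one family lowers those of others, and without miR161 in the pool 14 families were called.

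The features called by CPM held a small part of the pool. The 12 higher features together held 2.07%, 4.63% and 7.89% of it (lowest, median, highest) in long day and 1.47%, 3.16% and 5.33% in short day. The 31 lower features held 4.61%, 6.34% and 10.4% in long day and 5.79%, 9.74% and 14.4% in short day. The features not called carried a median of 88.5% in long day and 87.3% in short day.

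**Figure D4:**
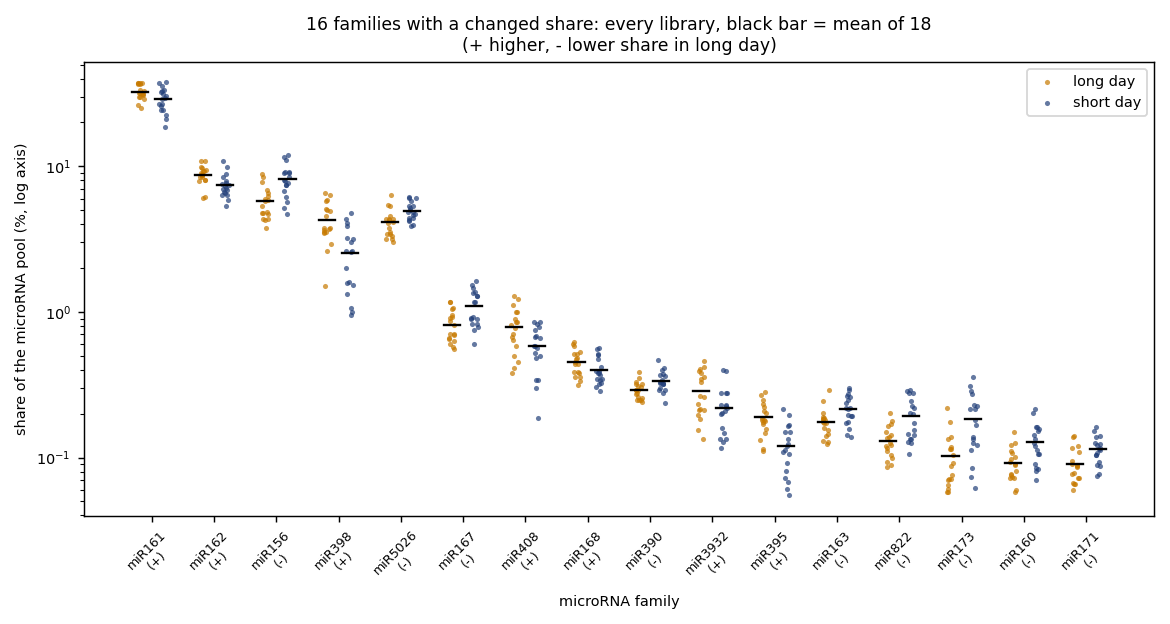
Share of the microRNA pool (percent, log axis) held by the 16 families with a changed share, ordered by long-day mean, with a point for each of 18 long-day (orange, left) and 18 short-day (blue, right) libraries and a bar for the mean. The points of the groups overlap in every family; miR398 and miR395 show the widest gap upward and miR156, miR822 and miR173 the widest downward.

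A ratio of 5p to 3p counts is taken within a library and so is free of scaling. Of 43 hairpins with both strands tested, 20 (46.5%) had a changed ratio between long and short day (permutation test within times, adjusted over the 43). The rarer strand gained on the commoner one in long day in 12 of the 20, and in 24 of all 43. In 25 of the 43, and in 12 of the 20, the 5p and 3p features pool different sets of loci, so that a change between strands and one between loci cannot be told apart there. This holds for miR390b, miR390a, miR166a/miR166b, miR167a, miR165a, miR171a and miR168a among those described here, and not for miR398b/miR398c, miR396a, miR164c and miR159b. In 21 of the 43 a feature is shared with another ratio, so those ratios share counts.

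Of the 20, miR390b had the largest shift. The log2 ratio of 5p over 3p counts was 0.505, 1.12 and 2.05 (lowest, median, highest) in long day, and 1.34, 2.68 and 3.90 in short day. The groups overlapped between 1.34 and 2.05, and the long-day mean was lower at 6 of 6 times (difference -1.46, adjusted p = 0.000215, which rests on the smallest p that 100000 draws can give). Its sister miR390a, which shares the 5p feature, shifted the same way by less (difference -0.40, adjusted p = 0.0150, and 0.0726 without the 5 short-day libraries). The 3p strands of both have the same seed, and of them only miR390b-3p was called by CPM, where miR390a-3p had a log2 fold change of -0.23 ± 0.15.

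For miR398b and miR398c the ratio also fell in long day, with log2 values of -9.06, -8.02 and -7.37 in long day and -8.19, -7.48 and -6.45 in short day (lowest, median, highest; adjusted p = 0.000215). There the commoner 3p strand was higher while the 5p strand, with a mean of 33.0 counts a library, was not called. In miR167a (difference -0.65, adjusted p = 0.000537) and miR396a (-0.88, adjusted p = 0.000602) the 5p strand was lower in CPM while the 3p strand was not called. In miR396a the commoner strand changed with it: the mean log2 ratio was -0.22 ± 0.57 in long day and 0.65 ± 0.75 in short day (SD, n = 18 each).

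In other hairpins the ratio rose. For miR166a and miR166b it stood at -3.40, -2.93 and -2.22 in long day against -3.66, -3.27 and -2.67 in short day (lowest, median, highest; difference 0.36, adjusted p = 0.000287), although neither strand was called by CPM. The ratios of miR165a (difference 0.60, adjusted p = 0.00337), miR171a (0.62, 0.00446) and miR159b (0.93, 0.00635) rose too, and those of miR164c (-0.54, 0.00436) and miR168a (-0.31, 0.0120) fell. Without the 5 short-day libraries 13 pairs were called, and among the 10 pairs named here for the smallest p miR168a was not (adjusted p = 0.0872).

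**Figure D5:**
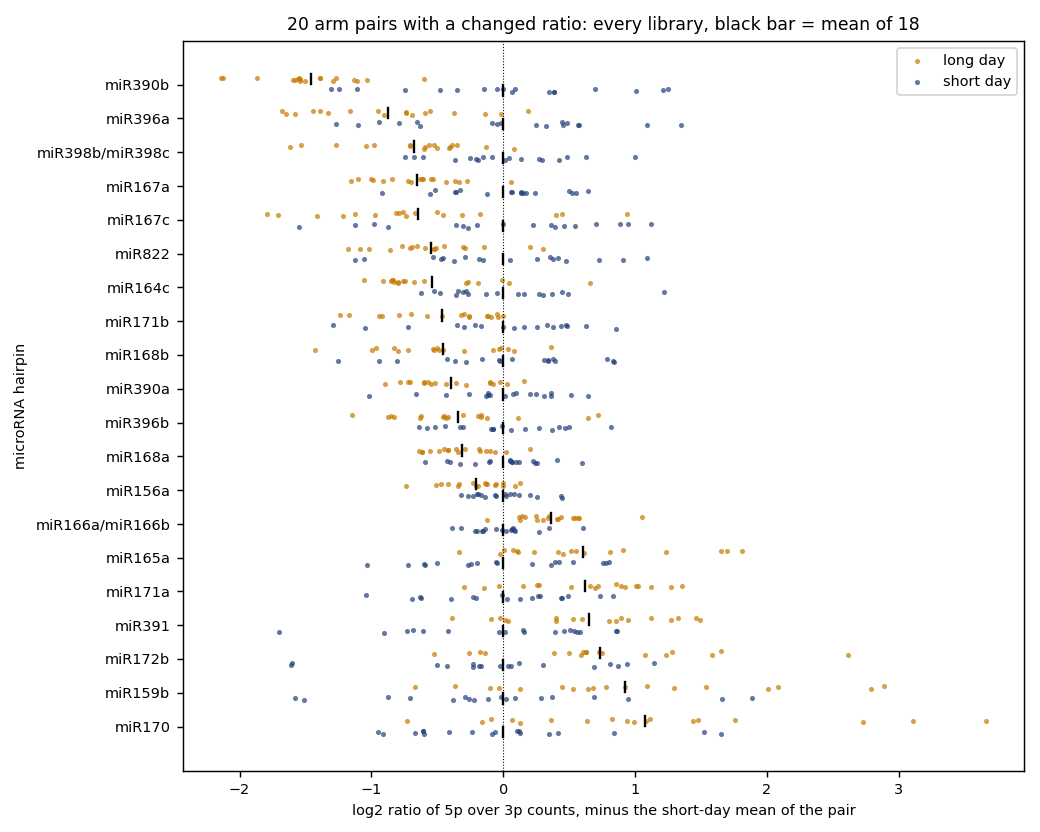
Log2 ratio of 5p over 3p counts in each library, minus the short-day mean of its hairpin, for the 20 hairpins with a changed ratio; orange points (upper) are 18 long-day and blue points (lower) 18 short-day libraries, and bars are means. The long-day bars run from -1.46 for miR390b to 1.08 for miR170, and the groups overlap in every hairpin.

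What the called sequences share was described without a test. Of the 12 higher features, 6 begin with U, 3 with C, 3 with G and 0 with A, and of the 31 lower ones 18 begin with U, 10 with A, 2 with G and 1 with C; among all 149 tested, 84 begin with U, 29 with A, 19 with C and 17 with G. Most are 21 nt long, 10 of 12 and 22 of 31, against 112 of 149. Among the 19 seeds shared by several tested features, all members were called in 3: both features of miR398-3p and both of miR395, higher, and miR170-3p with miR171a-3p, lower. In no such group did members pass in opposite directions. The sequences of both miR398-3p features differ by 1 base, and so do those of both miR395 features. Whether reads of one were counted for the other was not tested, so these pairs are not taken as separate cases. The RefSeq annotation of TAIR10.1 places 8 of the 31 lower and 0 of the 12 higher features, at 1 or more of their loci, in an exon of another gene. Of all 149 this holds for 15. The 8 lower ones are not separate cases. The strands miR156b-3p and miR156f-3p come from loci pooled in miR156a-f-5p, and both miR472 strands come from 1 locus. The 8 are miR156a-f-5p, miR156b-3p, miR156f-3p, miR472-3p, miR472-5p, miR840-5p, miR1886.2 and miR5654-3p, and reads of such transcripts could be among their counts.

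The labels do not say what features with a trex name stand for, so these are given as counts. Of 8720 tested, 946 were higher in long day and 1242 lower (25.1%). The same sign held at all 6 times for 1058 of these 2188, or 48.4%, against 55.8% of the called microRNAs. Over all features 958 were higher and 1273 lower; counting the genome row in the totals and dropping TMM factors gave 1172 higher and 887 lower, and without the 5 short-day libraries 479 were higher and 583 lower. The smallest p among those above 10 CPM with the same sign at 6 times belonged, on the higher side, to trex246734, with medians of 31.0 CPM in long day and 6.83 CPM in short day, and trex3091, with 32.0 and 13.5 CPM. On the lower side they belonged to trex846212, with 3.99 CPM in long day and 33.4 CPM in short day, and trex1472916, with 37.9 and 392 CPM.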

How the data were processed

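Small RNA reads of 54 libraries were given as 1 table of counts per feature, deposited by the authors; per the submitters' processing notes, cutadapt 3.4, Bowtie2 2.5.1 and SAMtools were used, and the genome build behind the counts is not stated there. The count table has 286 microRNA features, of which 40 join several names, 223365 features named trex, and 1 row named genome with 86.09% of all counts, which was left out of totals and tests. PCR duplicates were not told apart, so counts are not independent molecules.

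Features with enough counts (filterByExpr, minimum count 10, minimum total 15) were tested with edgeR 4.0.16 (R 4.3.3, limma 3.58.1) by its quasi-likelihood test, with TMM factors, a coefficient for each of 18 groups over all 54 libraries (residual degrees of freedom 36, common dispersion 0.208) and Benjamini-Hochberg adjustment over the 8869 features kept, which hold 98.1% of the counts outside the genome row; 137 microRNA features were not tested. Long day was set against short day as the mean over 6 times, at ZT12 with ZT16, at the other 4 times, and as the difference of these. Family shares (families of at least 0.1% of the pool) and log2 ratios of 5p to 3p counts (pseudocount 0.5) were compared by 2-sided permutation tests, with 100000 draws of the labels within times (20000 without 1 library). DESeq2 1.42.0 was an alternative. The code was tested on simulated data.

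Sequences were matched by name to the RefSeq annotation of TAIR10.1 (352 of 352 names). Named were the 10 most abundant microRNAs, the 10 with the smallest p, up to 4 called members of each list by fold change (2 by abundance where none was called), every family with a changed share, up to 10 arm pairs and 10 light differences, and 2 trex features a direction. The members and lists were chosen with earlier results of these data known.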

Additional observations from a re-analysis of the deposited data

Results flagged for a closer look

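The difference between long and short day was itself different between ZT12 with ZT16, when light was on in long day only, and the other 4 times for 4 microRNAs. These were 4 of the 149 tested, beside 2.83% of all features. On the log2 scale the change at ZT12 and ZT16 exceeded that at the other times by 2.28 for miR779.2, 1.79 for miR158a-5p, 1.12 for miR829-5p and 0.997 for miR165a-5p (edgeR's quasi-likelihood test of the difference, adjusted p below 0.05 over 8869 features). The joint test over the 6 times was passed by miR779.2 (adjusted p = 0.000584), miR158a-5p (0.0054) and miR169f-3p (0.0378), beside 3.12% of all features. The 5p strands of miR158a, miR165a and miR829 are among them, and the cause was not tested.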

How the results depend on the processing

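Of the 43 microRNAs called over all times, 16 were called in all 12 alternative fits and all 36 fits without 1 library, 17 in all alternative fits and 29 in all fits without 1 library; none of the 43 changed sign in any of them. With microRNAs fitted alone, 32 were higher, 56 were called at ZT12 and ZT16, 34 at the other times, 14 in the difference of these and 15 in the joint test. Without the 5 short-day libraries that lay apart, 5 were higher, and 479 features were higher, 583 lower, 10 families and 13 arm pairs were called. With no filter on low counts 5 microRNAs were higher, 12 lower, 5 called at ZT12 and ZT16, 2 at the other times, 2 in the difference and 1 in the joint test, and 590 features were higher. With DESeq2, 50 were lower, 40 were called at the other times and 7 each in the difference and the joint test. With totals that include the genome row and no TMM factors, an alternative chosen after seeing the data, 17 were lower and 6 called at the other times. The count at the other times was also 27 with DESeq2's size factors in edgeR (5 in the joint test), 20 with totals that include the genome row, 20 with its share as a covariate, 18 with a filter of 1 CPM and 22 with long-day and short-day libraries alone. The causes were not tested.

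Without 1 library, 8 to 13 microRNAs were higher and 23 to 36 lower, 709 to 1064 features higher and 862 to 1606 lower, and 10 to 21 microRNAs were called at ZT12 and ZT16, 6 to 19 at the other times, 3 to 6 in the difference and 2 to 3 in the joint test; 13 to 17 families and 19 to 22 arm pairs were called. The difference in microRNA share ran from -0.818 to -0.379 percentage points there, and turned to 0.0736 as a difference of medians and 0.015 as a share of all counts, with no test passed.

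Values of microRNAs not called changed sign as follows, on the log2 scale. Without the 5 short-day libraries they were -0.03132 for miR158a-5p, -0.1313 for miR161.1, -0.08499 for miR162a/b-3p, -0.03415 for miR164c-3p, -0.08789 for miR166a/b-5p, -0.004147 for miR168a-3p and -0.02234 for miR398b/c-5p. Alone, they were 0.1234 for miR159b-3p, 0.01133 for miR165a/b-3p, 0.05825 for miR167a-3p, 0.05064 for miR168a/b-5p and 0.01094 for miR403-3p. With the genome-row totals and no TMM factors they were 0.05534 for miR159b-3p and 0.032 for miR167a-3p. Without 1 library, miR166a/b-5p ran from -0.006495 (without long day ZT16 C) to 0.1594 and miR167a-3p from -0.162 to 0.001112 (without long day ZT24 A).

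The letters A, B and C did not pair the samples (18 pairs, correlation of deviations -0.512 to 0.153, 3 over 0.1). With the letter as a replicate block, 11 microRNAs were higher and 28 lower, 949 features higher and 1175 lower, 19 called at ZT12 and ZT16, 10 at the other times, 4 in the difference, 3 in the joint test, with 12 families, 19 arm pairs and a microRNA share difference of -0.582.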
